A study of Mus musculus with 9 samples.

Results

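The AP-1 Fos and Jun family was followed through mouse embryonic stem cells exposed to GSK3 inhibitors. The family was taken as the 7 genes Fos, Fosb, Fosl1, Fosl2, Jun, Junb and Jund, found by symbol among the 52264 rows of the deposited table of raw read counts. All 7 had counts in every library and passed the low-count filter, as did 15366 rows of the table. The cells carried the genotype β-catenin-/- in all groups, controls included, and were grown on feeder-treated dishes with 3 µM CHIR-99021, 1 µM PD03, a MEK inhibitor, and LIF at 40 ng/ml for expansion. The medium was then N2B27 overnight, followed by 30 min of BRD0705, of CHIR, or of no inhibitor. BRD0705 is an inhibitor selective for GSK3α, and CHIR (CHIR-99021) inhibits both GSK3α and GSK3β. The labels give neither the doses of the 30 min exposure nor whether the cells were 1 clone. There were 3 RNA sequencing libraries in each of the 3 groups.

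AP-1 is a pair of basic leucine zipper proteins that binds DNA as a dimer. Jun proteins pair with each other or with Fos proteins, whereas Fos proteins need a Jun partner. Fos, Fosb, Jun and Junb are immediate early genes, transcribed within minutes of a growth factor or stress signal from factors already present in the cell, while Jund is made at a steadier level in most cells. The proteins of Fosl1 and Fosl2, called Fra-1 and Fra-2, lack the strong activation domain of c-Fos, and ERK signalling, which the MEK inhibitor blocks, raises Fos and Fosl1 transcription. GSK3 phosphorylates c-Jun protein, which favours its degradation and lowers its DNA binding. That step acts on protein, which was not measured here.

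The stretches before the gene starts of Junb, Jun and Fos are shown because Junb passed the test under both inhibitors, Jun under CHIR and Fos under neither. They are the 250 bases before the RefSeq start, from the RefSeq promoter table for GRCm38.p6, which has 6 of the 7 members and no entry for Fosl1. GRCm38 is the assembly called mm10 in the submitters' processing notes. Capitals mark matches, on either strand, to the AP-1 site TGACTCA, the cyclic AMP response element TGACGTCA, its 5-base core TGACG, the Jun-type AP-1 site TGACATCA, the TATA motif TATAAA, the TCF/LEF core CTTTGA or the CArG box bound by serum response factor.
Junb promoter, chr8:84978749-84978998, minus strand: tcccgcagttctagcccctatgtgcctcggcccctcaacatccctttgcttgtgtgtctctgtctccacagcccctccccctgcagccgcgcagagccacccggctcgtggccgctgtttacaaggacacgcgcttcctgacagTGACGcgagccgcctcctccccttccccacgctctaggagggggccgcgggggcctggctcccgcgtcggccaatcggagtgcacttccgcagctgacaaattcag
Jun promoter, chr4:95052223-95052472, minus strand: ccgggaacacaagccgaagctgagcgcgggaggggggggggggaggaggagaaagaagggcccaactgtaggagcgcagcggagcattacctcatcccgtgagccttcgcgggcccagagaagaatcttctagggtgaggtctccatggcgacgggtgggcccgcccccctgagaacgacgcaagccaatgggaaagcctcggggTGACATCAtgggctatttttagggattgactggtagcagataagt
Fos promoter, chr12:85473640-85473889, plus strand: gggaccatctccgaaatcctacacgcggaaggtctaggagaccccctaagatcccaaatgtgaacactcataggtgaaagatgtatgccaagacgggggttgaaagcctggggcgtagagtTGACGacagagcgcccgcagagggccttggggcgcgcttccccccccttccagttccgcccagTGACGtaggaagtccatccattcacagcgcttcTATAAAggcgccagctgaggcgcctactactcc
The Jun stretch has TGACATCA from base -45 to -38, counted back from the start, which 2.93% of 32851 promoter stretches of the same length hold. TGACG is in the Fos stretch at -129 to -125 and -66 to -62 and in the Junb stretch at -106 to -102, and 17.8% of all stretches hold it. It overlaps TGACGTCA where both occur, and the full element had no match in any of the 6. Fos also has TATAAA at -33 to -28, found in 12.4% of stretches. TGACTCA, held by 4.46% of all stretches, has no match in the 3 shown. Neither has the TCF/LEF core (13.8%) or the CArG box (1.47%), and bases farther from the starts were not searched. These matches are letters in a short window and show no binding.

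Libraries held 17359422 to 20773337 counts. Ctnnb1, the gene of the genotype label, had 5657 to 7457 counts in every library, and a gene-level total cannot tell deleted from remaining exons. All 12 markers of embryonic stem cells were detected, at a summed 5578 to 5963 CPM, a count scaled to the size of its library. All 12 fibroblast markers, read as a sign of the feeder cells, were detected too, at a summed 2325 to 2792 CPM in control, 2949 to 3024 CPM with BRD0705 and 2625 to 3154 CPM with CHIR. The 9 primitive endoderm markers summed to 1214 to 1376 CPM over all libraries, and most of that sum was Sparc. Sparc had a mean of 1172 CPM in control, 1249 with BRD0705 and 1227 with CHIR. Lama1 had group means of 63.7 to 70.7 CPM and Gata4 and Gata6 of 1.63 to 2.01 CPM. Foxa2 had 0 to 1 counts per library. In bulk RNA, fewer cells of a type and less RNA per cell cannot be told apart, and which cells the AP-1 transcripts came from was not measured.

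The family was led by Jund and Junb. Scaled to transcript length, the mean level over the 9 libraries was 47.9 ± 7.32 CPM per kb for Jund, 24.6 ± 3.18 for Junb, 10.6 ± 2.47 for Fosl1, 7.39 ± 1.10 for Jun, 2.70 ± 0.217 for Fosl2, 1.57 ± 0.266 for Fos and 0.360 ± 0.0653 for Fosb (SD, n = 9). This order held in each of the 9 libraries at every step, with canonical transcript lengths and with the summed length of all exons. The closest neighbours were Fosl1 and Jun, with Fosl1 1.20 to 1.74 times higher per kb within a library. By the mean of its log2 CPM, unscaled for length, Jund stood at percentile 82.5 of the tested genes, Junb at 71.3, Jun at 57.8, Fosl1 at 53.8, Fosl2 at 53.2, Fos at 25.5 and Fosb at 15.2. The classical immediate early genes Fos and Fosb were thus the 2 lowest members, with 55 to 78 and 17 to 35 counts per library.

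**Figure D1:**
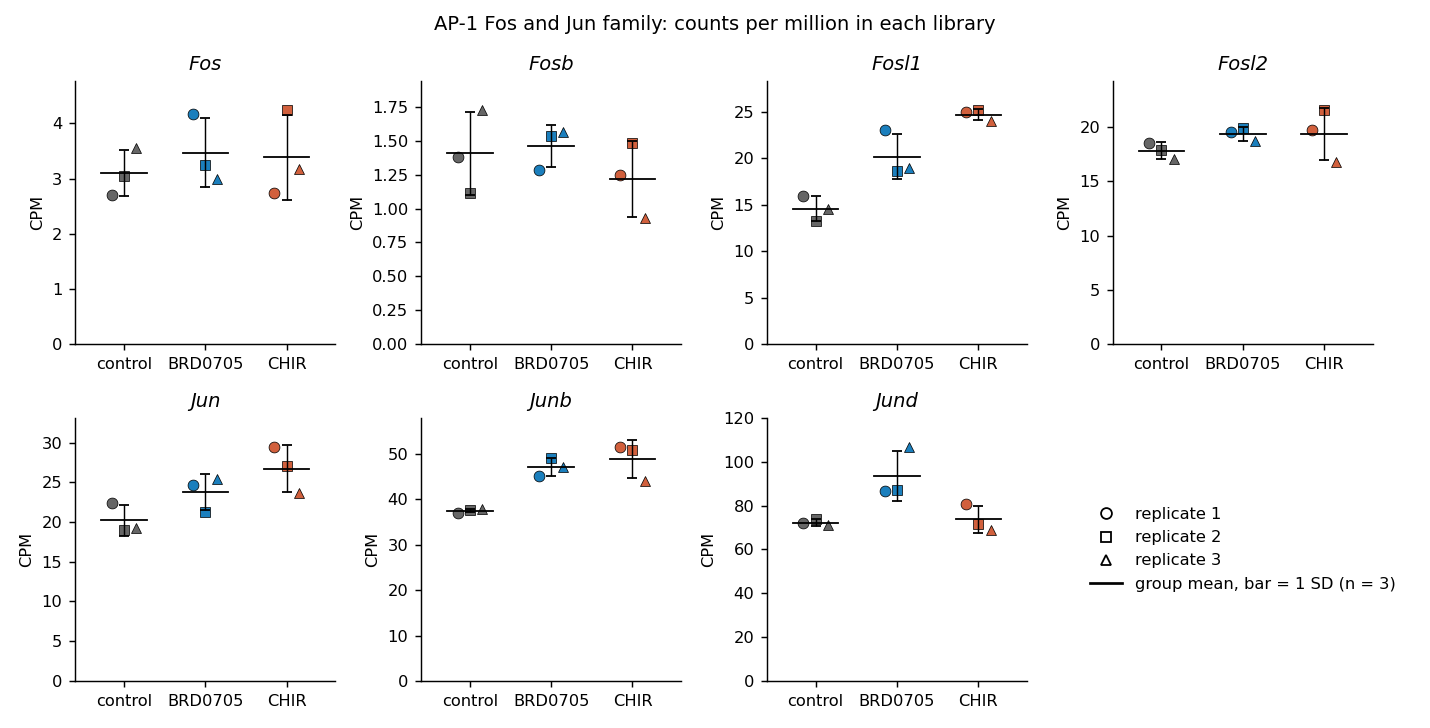
CPM of the 7 AP-1 genes by group, 1 point per library, with the group mean and 1 SD (n = 3 each), on axes that start at 0. Fosl1 and Junb lie above control under both inhibitors without overlap, Jund and Fosl2 under BRD0705 and Jun under CHIR. Of these, Fosl2 did not pass the test, and Fos and Fosb overlap throughout.

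Each inhibitor was set against control to ask which members changed within 30 min. At an adjusted p under 0.05 in edgeR (quasi-likelihood F test, Benjamini-Hochberg over all tested genes), Fosl1, Junb and Jund rose with BRD0705, and Fosl1, Jun and Junb rose with CHIR. No member fell. That is 3 of 7 members with BRD0705, where the test called 1.22% of all tested genes, 0.69% higher and 0.534% lower. It is also 3 of 7 with CHIR, where it called 6.3%, 2.52% higher and 3.78% lower. Without adjustment, at an edgeR p under 0.05, 4 members passed with BRD0705 and 3 with CHIR, against 15.9% and 20.5% of tested genes. The median log2 fold change of the 7 members was 0.24 with BRD0705 and 0.12 with CHIR, against -0.0038 and -0.00907 for all tested genes. Values were above control without overlap for 4 members with BRD0705 and 3 with CHIR, as in 9.83% and 10.9% of tested genes. Groups apart in either direction made up 20.2% and 25.1% of genes, and those below control 10.4% and 14.1%. Both comparisons use the same control libraries, and the members were chosen with earlier results of these data known. The labels do not say that libraries came from separate cultures, so p-values measure the spread between libraries, which may be technical.

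**Figure D2:**
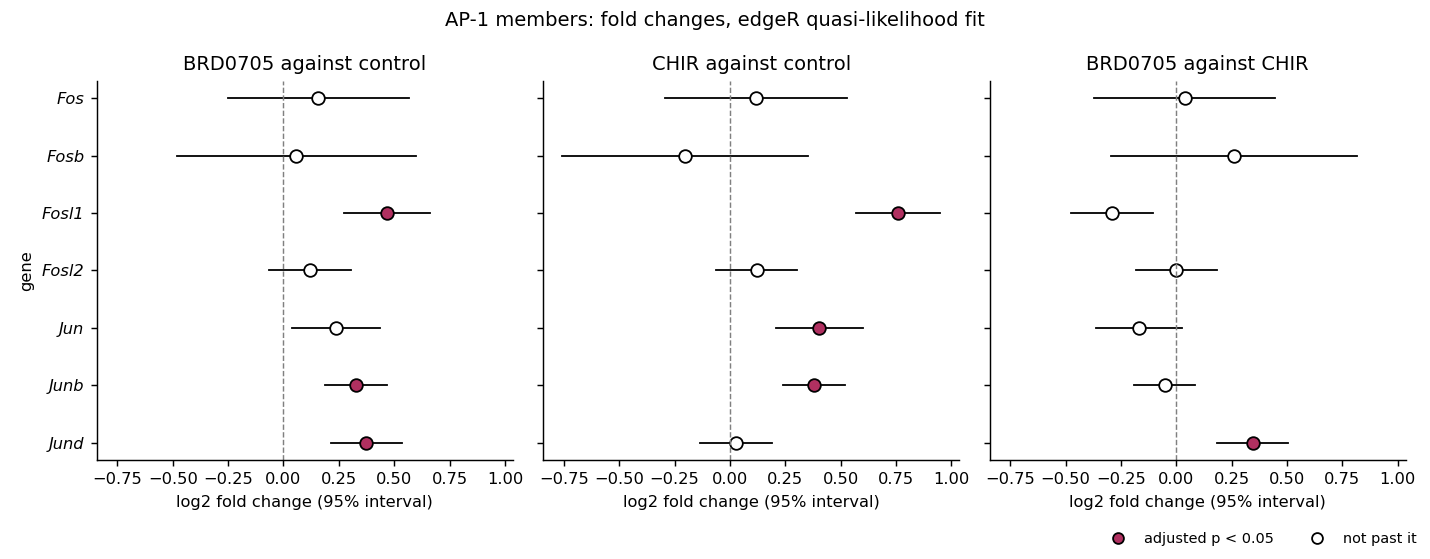
Log2 fold changes of the 7 AP-1 genes with 95% intervals in the 3 comparisons, from 1 edgeR fit over 9 libraries. Filled points have an adjusted p under 0.05, and they are Fosl1, Junb and Jund for BRD0705, Fosl1, Jun and Junb for CHIR, and Jund between the inhibitors.

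Among the Fos genes, Fosl1 was the member that changed. Fosl1 encodes Fra-1, an ERK-responsive partner of Jun proteins, and lies on GRCm38 chromosome 19 from 5447698 to 5455938, with 4 exons in its canonical transcript. It stood at 15.9, 13.3 and 14.6 CPM in control replicates 1 to 3, at 23.0, 18.6 and 18.9 CPM with BRD0705 and at 24.9, 25.2 and 24.0 CPM with CHIR. Every library of either inhibitor was above every control library, and the CHIR libraries were all above the BRD0705 libraries. The rise was 1.38-fold with BRD0705 (95% interval 1.21 to 1.58, log2 fold change 0.47 ± 0.09 SE, edgeR adjusted p 0.0192). With CHIR it was 1.69-fold (1.48 to 1.93, log2 fold change 0.76 ± 0.09 SE, edgeR adjusted p 7.69e-05). All 9 fits that left out 1 library kept the CHIR call. The BRD0705 call was lost without BRD0705 replicate 1, control replicate 2 or control replicate 3, with edgeR adjusted p values of 0.143, 0.109 and 0.0811. Ccdc85b, on the opposite strand and partly overlapping Fosl1, did not pass the test (log2 fold change 0.16 with BRD0705 and 0.11 with CHIR, edgeR adjusted p 0.541 and 0.639). Whether counting used strand is not given in the sources used here, so reads of opposite genes cannot be told apart.

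Fosl2, Fos and Fosb did not pass in any comparison. Fosl2, which encodes Fra-2, lies on chromosome 5 from 32136472 to 32157840 with 4 exons. It was at 18.5, 17.9 and 17.0 CPM in control, 19.5, 19.9 and 18.7 CPM with BRD0705 and 19.7, 21.5 and 16.8 CPM with CHIR. The BRD0705 libraries lay just above control and the CHIR libraries on both sides of it. Its 95% interval was 0.957 to 1.23-fold with BRD0705 and 0.957 to 1.24-fold with CHIR. The log2 fold changes of Fosl1 and Fosl2 had like standard errors, 0.092 and 0.088 with BRD0705 and 0.091 and 0.088 with CHIR.

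Fos, on chromosome 12 from 85473890 to 85477274 with 4 exons, encodes the founding partner of c-Jun. It was at 2.71, 3.05 and 3.55 CPM in control, 4.17, 3.24 and 2.99 CPM with BRD0705 and 2.74, 4.24 and 3.17 CPM with CHIR. The 3 groups covered almost the same range. The fold change was 1.12 with BRD0705 (95% interval 0.840 to 1.48) and 1.09 with CHIR (0.817 to 1.44), with edgeR adjusted p values of 0.762 and 0.802. Counting alone gives a coefficient of variation of 12.5% at this depth, against 17.0% measured over the 9 libraries. A change of the size seen for Junb would lie inside these intervals and was not detectable for Fos.

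Fosb, whose protein is closest to c-Fos, lies on chromosome 7 from 19302696 to 19310118 and has 4 exons. It was at 1.38, 1.11 and 1.72 CPM in control, 1.28, 1.54 and 1.57 CPM with BRD0705 and 1.25, 1.49 and 0.929 CPM with CHIR, and the groups overlapped. The interval was 0.718 to 1.51-fold with BRD0705 and 0.592 to 1.28-fold with CHIR (edgeR adjusted p 0.946 and 0.740). Its measured coefficient of variation over the 9 libraries, 18.1%, was no larger than the 19.4% that counting gives.

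All 3 Jun genes passed in at least 1 comparison, and each has a single exon. Junb, on chromosome 8 from 84976909 to 84978748, encodes a Jun protein with weaker activation than c-Jun. It stood at 37.1, 37.7 and 37.8 CPM in control, 45.2, 49.0 and 47.1 CPM with BRD0705 and 51.5, 50.9 and 44.0 CPM with CHIR. The control libraries had a coefficient of variation of 1.07%, less than the 3.61% that counting gives, and all treated libraries lay above them. Junb rose 1.25-fold with BRD0705 (95% interval 1.14 to 1.38, log2 fold change 0.33 ± 0.07 SE, edgeR adjusted p 0.0241) and 1.30-fold with CHIR (1.18 to 1.43, log2 fold change 0.38 ± 0.07 SE, edgeR adjusted p 0.00205). For Junb the CHIR call was kept in all 9 fits that left out 1 library. The BRD0705 call was lost without BRD0705 replicate 1 or 2, or control replicate 2 or 3, with edgeR adjusted p values of 0.0657, 0.0851, 0.0757 and 0.0884. Prdx2, opposite Junb, had 3087 to 4352 counts and a log2 fold change of -0.07 with BRD0705 and 0.05 with CHIR (edgeR adjusted p 0.612 and 0.691).

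Jun encodes c-Jun, a GSK3 substrate, and lies on chromosome 4 from 95049036 to 95052222. It was at 22.4, 19.0 and 19.2 CPM in control, 24.7, 21.2 and 25.4 CPM with BRD0705 and 29.5, 27.1 and 23.6 CPM with CHIR. All CHIR libraries were above control, while BRD0705 replicate 2 was below control replicate 1. Jun rose 1.32-fold with CHIR (95% interval 1.16 to 1.52, log2 fold change 0.40 ± 0.09 SE, edgeR adjusted p 0.0140). With BRD0705 the fold was 1.18 (1.03 to 1.35), with an unadjusted p of 0.0214 and an edgeR adjusted p of 0.223. The CHIR call was lost without CHIR replicate 1 or 2, or control replicate 2 or 3, with edgeR adjusted p values of 0.0636, 0.0517, 0.0634 and 0.0604. Junos, the noncoding gene opposite Jun, had at most 4 counts per library.

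Jund separated the inhibitors. It encodes JunD, the Jun protein tied to quiescence and protection from oxidative stress, and lies on chromosome 8 from 70697739 to 70700616. Its level was 72.0, 73.9 and 71.1 CPM in control, 86.8, 87.3 and 107 CPM with BRD0705 and 80.7, 71.6 and 69.0 CPM with CHIR. The BRD0705 libraries were above all others, with replicate 3 highest, and the CHIR libraries lay around control. Jund rose 1.30-fold with BRD0705 (95% interval 1.16 to 1.45, log2 fold change 0.37 ± 0.08 SE, edgeR adjusted p 0.0251), and it stood at 1.02-fold with CHIR (0.912 to 1.14, edgeR adjusted p 0.884). Without BRD0705 replicate 3 the log2 fold change was 0.28 and still passed. The call was lost without BRD0705 replicate 1, control replicate 2 or control replicate 3, with edgeR adjusted p values of 0.0514, 0.0731 and 0.103. Gm11175, opposite Jund, had 0 to 65 counts and did not pass.

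Fibroblast markers moved with the inhibitor groups, and their part in these rises was not tested. All 12 markers had a log2 fold change above 0 under each inhibitor, as did 49% and 47.6% of all tested genes. Their median was 0.23 for BRD0705 and 0.19 for CHIR. In each, 1 of them, Col1a1, passed, where the test called 1.22% and 6.3% of tested genes. At an unadjusted edgeR p under 0.05 there were 8 and 7 of the 12, against 15.9% and 20.5% of tested genes. The marker score of a library, its mean log2 CPM over the list, was 6.07 to 6.29 in control, 6.39 to 6.45 with BRD0705 and 6.18 to 6.47 with CHIR. CHIR replicate 3 had a score of 6.18, within the control range, and was at 24.0 CPM for Fosl1, 44.0 for Junb, 23.6 for Jun and 69.0 for Jund. Control replicate 1, with the higher score of 6.29, was at 15.9 CPM for Fosl1, 37.1 for Junb, 22.4 for Jun and 72.0 for Jund. With the score as a covariate, Fosl1 still rose with CHIR (log2 fold change 0.65, edgeR adjusted p 0.00706). Junb and Jun with CHIR then had edgeR adjusted p values of 0.0947 and 0.357, at log2 fold changes of 0.29 and 0.20. No member passed with BRD0705 in that fit, where 0 of all tested genes passed and the lowest edgeR adjusted p of a member was 0.474. The scores of BRD0705 and control did not overlap, so that fit cannot tell score from inhibitor between these groups. The BRD0705 log2 fold changes were then 0.33 ± 0.13 SE for Fosl1, 0.22 ± 0.09 for Junb and 0.30 ± 0.11 for Jund. Without the covariate they were 0.47 ± 0.09, 0.33 ± 0.07 and 0.37 ± 0.08 SE.

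**Figure D3:**
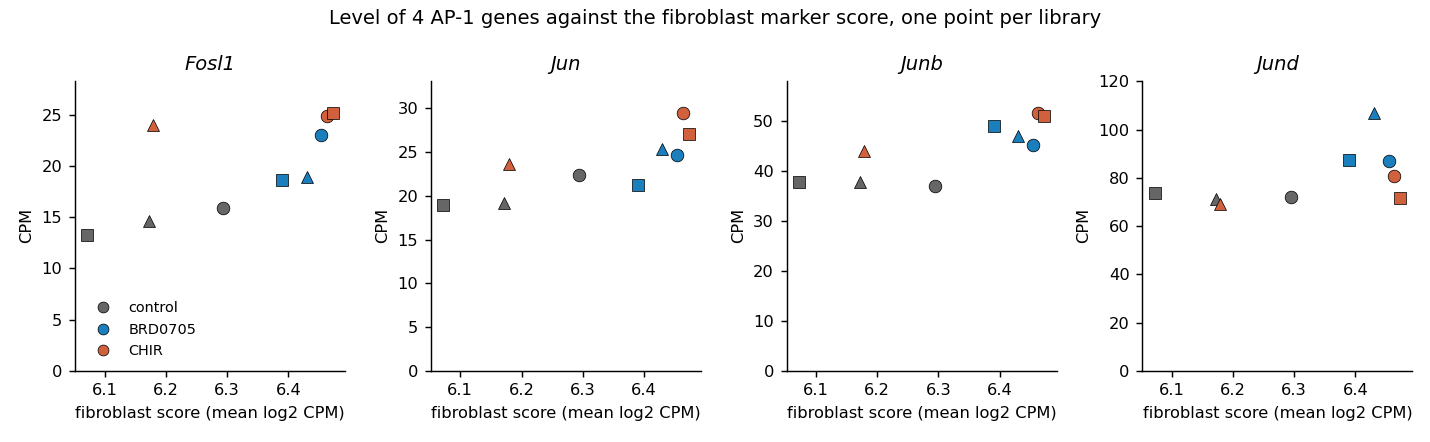
CPM of Fosl1, Jun, Junb and Jund (vertical, from 0) against the fibroblast marker score of the library (horizontal, mean log2 CPM of 12 markers), 1 point per library, symbols by replicate. CHIR replicate 3 shares the score range of the control libraries and lies above them for Fosl1, Junb and Jun but not for Jund.

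GC content differed between members, and its correlation with library levels across all genes separated BRD0705 from CHIR but neither of them from control. The canonical transcripts of Jund and Junb are 67.2% and 62.6% GC, against 51.9% for Fos and 54.2 to 58.5% for the others. Across genes, a library's deviation from the mean level had a Spearman correlation with GC content of 0.0541 to 0.260 in the BRD0705 libraries, -0.116 to -0.0542 in the CHIR libraries and -0.292 to 0.193 in control. A trend with GC content and length was also fitted to each library. For Jund it was 0.037 to 0.082 on the log2 scale with BRD0705, above the -0.045 to -0.014 of control. For Jun it was -0.054 to -0.038 with CHIR, below the -0.032 to 0.053 of control. For Fosl1 and Junb both inhibitors overlapped control. After an offset for GC content and length fitted to each library, the BRD0705 log2 fold change was 0.28 for Jund and 0.26 for Junb, and both calls were lost (edgeR adjusted p 0.0652 and 0.0812). Fosl1 kept its call with BRD0705 in that fit, and the 3 calls with CHIR were kept too.

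The inhibitors were compared directly at the same 30 min, for 7 members with p-values adjusted over all tested genes. Jund was 1.27-fold higher with BRD0705 than with CHIR (95% interval 1.14 to 1.42, log2 difference 0.34 ± 0.08 SE, edgeR adjusted p 0.00974). It was 1 member of 7, where the test called 7.77% of all tested genes, 4.8% as higher with BRD0705 and 2.97% as lower. Members above 0 numbered 3 of 7, against 50.8% of tested genes. The call was kept with the GC and length offset, with the fibroblast score as a covariate and in 8 of 9 fits that left out 1 library, the exception being without CHIR replicate 2 (edgeR adjusted p 0.0565). Fosl1 was lower with BRD0705 in every library, at 0.817 of its CHIR level (0.719 to 0.929), but the edgeR adjusted p of 0.0501 missed the threshold. With the replicate number as a block that p was 0.0344. Groups without overlap were seen for Jund and Fosl1, 2 members of 7, as in 26.7% of tested genes, 13.7% above and 12.9% below CHIR. At an unadjusted p under 0.05 in edgeR these same 2 passed, against 22.5% of tested genes.

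For the other members no difference between the inhibitors passed the test. The interval of the BRD0705 to CHIR ratio was 0.876 to 1.06 for Junb, 0.778 to 1.02 for Jun, 0.881 to 1.14 for Fosl2, 0.773 to 1.36 for Fos and 0.815 to 1.76 for Fosb. Doses are not in the labels, so the strength of inhibition at 30 min may differ between the compounds.

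Ratios of counts within a library do not depend on how libraries are scaled. The Junb to Jund ratio was 0.515, 0.511 and 0.532 in control, 0.521, 0.562 and 0.441 with BRD0705 and 0.639, 0.712 and 0.637 with CHIR. The CHIR libraries were above all others, and the BRD0705 libraries were spread around control. The Fosl1 to Fosl2 ratio was 0.859, 0.743 and 0.858 in control, 1.18, 0.934 and 1.02 with BRD0705 and 1.26, 1.17 and 1.43 with CHIR, so that every treated library was above control. In control the Junb to Jun ratio was 1.87 ± 0.187 (SD, n = 3), and the groups overlapped, with means of 2.00 ± 0.272 under BRD0705 and 1.83 ± 0.0710 under CHIR. The Fosl1 to Junb ratio was 0.389 ± 0.0390, 0.430 ± 0.0691 and 0.508 ± 0.0331 (SD, n = 3) in the same order, with CHIR above control without overlap. In 2-sided exact permutation tests, 3 against 3 libraries cannot give a p below 0.1, and the lowest Benjamini-Hochberg adjusted value over 24 tests was 0.185.

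**Figure D4:**
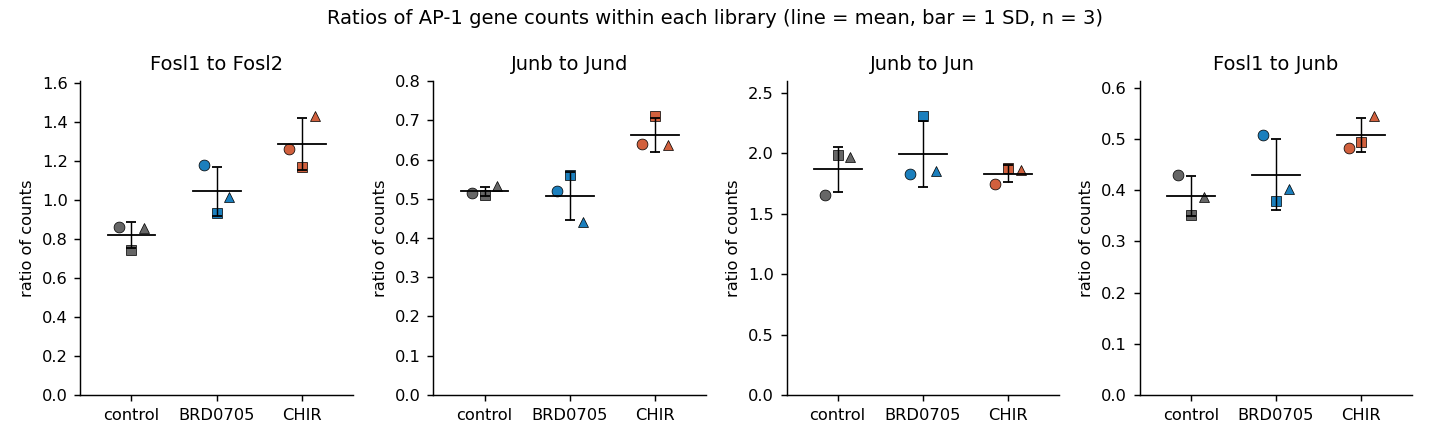
Ratios of raw counts within each library by group, from 0, with the group mean and 1 SD (n = 3 each). The Fosl1 to Fosl2 ratio is above control under both inhibitors, and the Junb to Jund ratio lies at 0.637 to 0.712 with CHIR and at 0.441 to 0.562 in the other 6 libraries.

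Summed over the 7 genes, the family stood higher than control under each inhibitor, with a different makeup of the mean difference. The summed level of the 7 genes was 83.6, 82.5 and 81.9 CPM per kb in control, 102, 101 and 113 with BRD0705 and 104, 98.6 and 90.2 with CHIR, with no overlap with control in either (exact permutation p 0.1, the smallest possible). Of the mean difference of 22.6 CPM per kb between BRD0705 and control, Jund made up 56.6%, Junb 23.4% and Fosl1 13.3%. With 1 library left out, the part of Jund ran from 46.8% without BRD0705 replicate 3 to 61.5% without BRD0705 replicate 1. Of the 14.9 CPM per kb between CHIR and control, Junb made up 41.9%, Fosl1 36.4%, Jun 13.7% and Jund 5.88%. The part of Jund in that difference was -10.3%, 10.7% and 12.3% without CHIR replicates 1, 2 and 3. It was 5.13%, 9.05% and 3.43% without control replicates 1, 2 and 3. Jund's share of the family averaged 52.5 ± 1.07% in control (SD, n = 3), 53.2 ± 3.17% under BRD0705 and 45.4 ± 1.58% under CHIR. Fosl1 held 9.47 ± 0.801%, 10.3 ± 1.57% and 13.6 ± 0.712% in the same order (SD, n = 3). All Fos genes together made up 13.8 to 15.4% of the family in control, 13.0 to 17.1% with BRD0705 and 17.1 to 19.3% with CHIR. With summed exon lengths in place of canonical transcripts Jund's mean shares were 57.1, 57.8 and 49.8%.

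**Figure D5:**
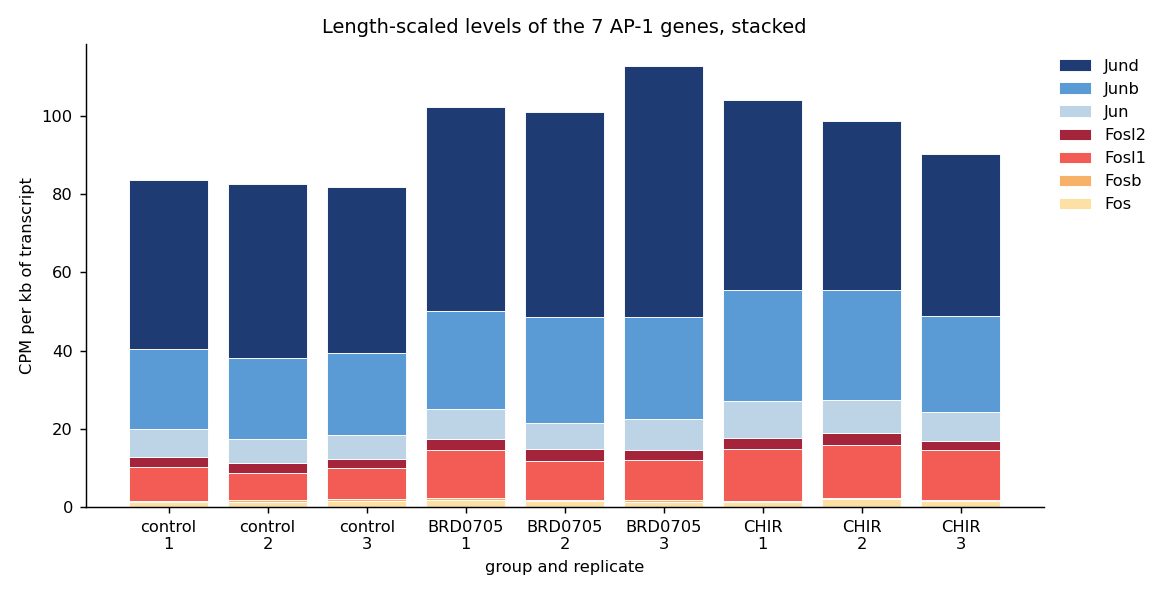
Length-scaled levels of the 7 AP-1 genes stacked for each of the 9 libraries, in CPM per kb of canonical transcript. Totals are 81.9 to 83.6 in control, 101 to 113 with BRD0705 and 90.2 to 104 with CHIR, with a taller Jund segment under BRD0705 and taller Fosl1 and Junb segments under both inhibitors.

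Described over the 9 libraries, with no test, the highest correlations among members were those of Fosl1, Jun and Junb. The Pearson correlation of log2 CPM was 0.873 for Fosl1 with Jun, 0.826 for Fosl1 with Junb and 0.785 for Jun with Junb. Fosl2 came next, at 0.707 with Junb, 0.595 with Jun and 0.503 with Fosl1. Jund correlated at 0.108 with Fosl1, 0.284 with Jun and 0.431 with Junb, and Fos with Jun at 0.0542. These points share libraries, depth and the group differences. Among the 12408 genes whose mean log2 CPM reached 1, those most like Fosl1 were Tpp1 (r = 0.974), Tmem248 (0.974) and Fastkd3 (0.968). Those most like Junb were Sh3glb1 (0.976), Tprgl (0.947) and Krtdap (0.944), those most like Jun included Kctd10 (0.948) and Nbl1 (0.940), and those most like Jund were Samd10 (0.964), Pip4p1 (0.962) and Lefty1 (0.960). For Fosl2 they were Pmp22 (0.956), Postn (0.949) and Vcan (0.945), of which Postn is 1 of the 12 fibroblast markers. For Fos they were 1300002E11Rik (0.962), Obi1 (0.940) and Mmaa (0.913), and for Fosb 2510009E07Rik (0.932), Galnt3 (0.928) and Haus7 (0.924).

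Other basic leucine zipper genes whose proteins can join Fos or Jun proteins passed the test at a share near that of all tested genes. Of 16 such genes of the ATF, BATF, JDP and MAF families and Ddit3, 13 were tested. In edgeR none passed with BRD0705 and 1 with CHIR, where the test called 1.22% and 6.3% of all tested genes. For 1 and 5 of the 13 the unadjusted edgeR p was under 0.05, against 15.9% and 20.5% of tested genes. The gene that passed was Ddit3, which encodes the stress factor CHOP. It rose from 6.91 ± 0.190 to 11.1 ± 0.421 CPM with CHIR (SD, n = 3), a log2 fold change of 0.68 ± 0.11 SE with an edgeR adjusted p of 0.00140. That call was lost with the fibroblast score and the replicate block together in the fit. Under BRD0705 it was at 7.15 ± 0.934 CPM, lower than with CHIR (log2 difference -0.63 ± 0.11 SE, edgeR adjusted p 0.00234). The list's median log2 fold change was 0.0047 with BRD0705 and 0.08 with CHIR. Mafg, not called with CHIR in the reported fit, passed there with DESeq2, with the GC and length offset and without control replicate 1.

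None of the 25 genes that feed into AP-1 passed in edgeR with either inhibitor against control, where 1.22% and 6.3% of all tested genes did. An unadjusted p under 0.05 in edgeR was seen for 6 with BRD0705 and 4 with CHIR, against 15.9% and 20.5% of tested genes. The list holds Srf and its Elk and Mrtf partners, Creb1, the ERK, JNK and p38 kinases with their activators, the Rsk and Msk kinases, and the ubiquitin ligase genes Fbxw7, Cop1 and Itch. All 25 were tested, with a median log2 fold change of 0.01 and 0.02.

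Of 24 textbook AP-1 target genes, 23 were tested, 3 rose with BRD0705, 6 rose with CHIR and none fell, where 0.69% and 2.52% of all tested genes were called higher. The median log2 fold change was 0.18 with each, and 19 and 22 of the 23 were above 0, where 49% and 47.6% of all tested genes were. The list was chosen with earlier results of these data known, so these counts are a description and no test of AP-1 activity. Hbegf, the gene of an EGF receptor ligand, and Hmox1, heme oxygenase 1, rose with both inhibitors. Hbegf was at 32.2 ± 2.84 CPM in control, 40.4 ± 2.44 with BRD0705 (log2 fold change 0.32 ± 0.07 SE, edgeR adjusted p 0.0419) and 47.6 ± 3.06 with CHIR (0.56 ± 0.07 SE, edgeR adjusted p 0.000184; SD, n = 3 each). Hmox1 was at 114 ± 4.62, 140 ± 3.59 and 150 ± 6.80 CPM in the same order (SD, n = 3; edgeR adjusted p 0.0136 and 0.000346).

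Plaur, the urokinase receptor gene, rose with BRD0705 and differed between the inhibitors. It went with BRD0705 from 39.2 ± 4.53 to 49.7 ± 2.18 CPM (SD, n = 3, edgeR adjusted p 0.0360), and was at 39.3 ± 2.11 CPM with CHIR (log2 difference 0.34 ± 0.08 SE, edgeR adjusted p 0.00955), a call lost without CHIR replicate 1. Vegfa, the metallothionein genes Mt1 and Mt2, and Tgfb1 rose with CHIR. Their log2 fold changes were 0.36, 0.29, 0.25 and 0.23 (edgeR adjusted p 0.00381, 0.0102, 0.0164 and 0.0328). The fibroblast markers moved with the groups here too, and their score did not overlap between BRD0705 and control. With their score as a covariate, the targets called were 0 with BRD0705 and 3 with CHIR, Hbegf, Hmox1 and Mt2, and 16 and 14 of the 23 were above 0. With the replicate block added, Hbegf alone was called with CHIR and 0 targets with BRD0705. Leaving out BRD0705 replicate 1 or 2, or control replicate 2 or 3, left 0 targets called with BRD0705, leaving out control replicate 1 gave 6, and leaving out control replicate 2 left 3 with CHIR.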

How the data were processed

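RNA sequencing was compared in 9 libraries, 3 per group, with groups and replicate numbers from the sample titles. The authors deposited whole-number raw read counts per gene symbol. RSEM, DESeq2 and the mm10 build are named in the submitters' processing notes without a role, and whether estimated values were rounded to whole counts is not stated. The aligner, annotation and strand setting are not given in the sources used here. The authors also deposited normalized values, a signal equal to the count divided by 1 factor per library, to within 9.87e-10. Per the labels' protocols the libraries were TruSeq with ribosomal depletion, while the molecule label says polyA RNA.

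The 2-sided quasi-likelihood F test of edgeR 4.0.16 (R 4.3.3) was run on the counts after filterByExpr (minimum count 10) and TMM scaling, with 3 group means in 1 fit and 6 residual degrees of freedom. The threshold was 0.05 on p adjusted over 15366 genes (Benjamini-Hochberg). The standard error is the absolute log2 fold change over the square root of F, and intervals are 95%. For CPM, library sizes were multiplied by their TMM factors, and for log2 CPM 2 counts were added as a prior.

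The members and gene lists were chosen with earlier results of these data known. Named were all 7 members, the genes most like each by correlation, and per comparison up to 4 list genes in each direction past the threshold, apart from a few that are not reported here. Transcript lengths and GC content came from GENCODE vM39 on GRCm39, which matched 49494 of 52264 rows by symbol, and 98% of tested genes had both. Coordinates and promoters came from RefSeq on GRCm38.p6.

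Library pairs within a group differed by more than sampling noise, at 3.22 to 7.44 chi-square units per degree of freedom. Alternatives were the replicate number as a block, DESeq2 1.42.0, limma 3.58.1 (voom, or on the deposited values as log2 with pseudocounts of 1 and 0.1), other scalings and filters, pairs of groups alone, each library left out, a fibroblast score covariate and a GC and length offset (splines with 5 degrees of freedom each). The fibroblast covariate together with the block, and the parts of the summed difference without each library, were added after seeing the data.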

Additional observations from a re-analysis of the deposited data

How the results depend on the processing

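Compared with the CHIR calls of Fosl1 and Junb, those with BRD0705 were less stable. Of 3 members called, 0 remained past the threshold with limma on the deposited values with either pseudocount (at log2 fold changes of 0.47 for Fosl1, 0.33 for Junb and 0.37 for Jund, with 0 of all genes called), 0 with the fibroblast score as a covariate, alone or with the replicate block, and 1, Fosl1, with the GC and length offset, alone or with the replicate block. With CHIR 2 of 3 remained, Fosl1 and Junb, with limma on the deposited values. With the fibroblast covariate, alone or with the block, 1 remained with CHIR, also Fosl1. The score did not overlap between BRD0705 and control, so the covariate fits cannot tell score from inhibitor there. The CHIR call of Jun was kept in 5 of 9 fits that left out 1 library, against 5 or 6 for the BRD0705 calls. Between the inhibitors, where 1 member was called, 2 passed (Jund and Fosl1) with the replicate block, limma voom, DESeq2-type size factors, no low-count filter, a filter on mean CPM of 1, the fibroblast covariate and the GC and length offset, the last 2 also with the block, and 0 passed with limma on the deposited values. Leaving out 1 library gave 0 to 3 members for BRD0705, 2 to 3 for CHIR and 0 to 2 between the inhibitors. The replicate block changed no other member's call. Same-numbered libraries did not deviate together, with a mean correlation of -0.00119 over 9 pairs against 0.000622 over 18 pairs of other numbers.

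Members that did not pass changed sign in some settings. With the fibroblast covariate, alone and with the block, Fosb with BRD0705 was at -0.31 and -0.63, Fosl2 at -0.065 and -0.056 with BRD0705 and at -0.030 and -0.026 with CHIR, and Jund with CHIR at -0.028 and -0.071. Jun with BRD0705 was at -0.013 with the covariate, Fosb at -0.00090 with the GC and length offset and block, and Fos between the inhibitors at -0.0057 with the offset alone. Fosl2 between the inhibitors, at -0.0001 as reported, was at -0.13 with the GC and length offset, and on the other side of 0 at 0.0056 with the replicate block, 0.0057 with voom, 0.031 with library size only, 0.0046 with the mean CPM filter, 0.0014 with the compared groups only, and 0.00082 and 0.00084 with limma on the deposited values. Leaving out 1 library gave -0.075 to 0.24 for Fosb with BRD0705, -0.066 to 0.26 for Fos and -0.031 to 0.082 for Jund with CHIR, and -0.12 to 0.23 for Fos and -0.094 to 0.079 for Fosl2 between the inhibitors. The cause was not tested. AP-1 targets called with BRD0705 numbered 7 without the low-count filter, 5 with DESeq2 and 0 with limma on the deposited values, where CHIR had 2. All genes called with BRD0705, 188 as reported, numbered 489 with DESeq2, 609 without the low-count filter, 103 to 116 with the offset and 0 with limma on the deposited values. Leaving out 1 library gave 21 (0.135%) without BRD0705 replicate 1, 37 and 51 without control replicate 2 and 3, 55 and 98 without BRD0705 and CHIR replicate 2, 292 without control replicate 1 and 305 (1.96%) without BRD0705 replicate 3. Counts of 17 to 35 per library limit Fosb, and 55 to 78 limit Fos. Other scalings moved the median of all genes by less than 0.1 on the log2 scale.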
